A study of Drosophila melanogaster with 15 samples.

Results

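The genes wg, Wnt6, Wnt10, Notum, nkd, fz2, fz3, arr, Axn and arm of Drosophila melanogaster encode Wnt ligands, proteins that feed back on Wingless signalling, Wnt receptors and core transducers. They were picked by symbol in the authors' deposited table of comparisons and followed by gene identifier into the table of expression values, where they are 10 of 14671 genes. Polyadenylated RNA was sequenced, and each level below is an FPKM value, a number of fragments scaled to transcript length and library depth, so levels of different genes may be set side by side.

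The tissue was the eye imaginal disc of third-instar larvae, the epithelial sac that forms the adult eye. In every group GMR-Gal4, which acts behind the morphogenetic furrow, drove UAS-eGFP, and this GFP-positive domain was cut out of 25 to 30 discs per library. The control group carried GMR-Gal4; UAS-eGFP alone and had normal eyes. The other groups added UAS-MonosigaYAP (Monosiga Yap, differentiation defects), UAS-MonosigaYAP+HumanTBD (Monosiga Yap-TBD, defects with strong ectopic proliferation), UAS-DrosophilaYKI S168A (Yki S168A, defects with a middle degree of proliferation) and UAS-TrichoplaxYAP S81A (Trichoplax Yap S81A, defects with strong proliferation). Monosiga is a choanoflagellate and Trichoplax a placozoan, and Yap or Yki is the coactivator that the Hippo pathway restrains. There were 3 libraries per group. The labels speak of RNA extracted in triplicate and do not say more about what separates the libraries of a group, so p-values measure the spread between these libraries. RNA from a pooled piece of tissue cannot tell fewer cells of a type from less RNA per cell, and this holds for each result below.

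Wingless (Wg) is a secreted Wnt. It binds Frizzled receptors and the co-receptor Arrow, which stops the Axin complex from destroying Armadillo, the fly beta-catenin, and Armadillo then switches on target genes with the DNA-binding protein Pangolin. Several targets dampen the pathway: Notum takes an essential lipid off Wnt proteins outside the cell, and Naked cuticle acts on Dishevelled inside it. In the eye disc wg is known from the dorsal and ventral margins, where it holds back the furrow and favours head cuticle over retina.

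The depth, estimated from the steps between low values, was 12.1 to 20.7 M fragments per library. At the lowest depth, 1 FPKM for a 2000-base transcript stood for about 24.2 fragments. Retinal determination markers summed to 452 to 532 FPKM in the control and 409 to 528 FPKM with Monosiga Yap. Their sums were 289 to 410 FPKM with Monosiga Yap-TBD, 375 to 478 with Yki S168A and 331 to 399 with Trichoplax Yap S81A. Wing disc markers summed to 6.71 to 14.1 FPKM in each library. The transgene of Yki S168A was visible in yki itself, at 695.5, 706.2 and 408.3 FPKM against 80.03 to 88.97 FPKM in the control. Trichoplax Yap S81A replicate 1 stood apart by fat body markers, which summed to 4453 FPKM there and to at most 31.3 FPKM in the libraries of the other groups. The counts of calls that involve this construct, and the calls that rest on this library, are also given without it. All 10 genes reached an FPKM of 1 in at least 3 libraries and entered the test, which was limma on log2(FPKM + 1) over 9213 genes. Wnt10 did so only through libraries of Yki S168A and Trichoplax Yap S81A, as did Dll and ninaC of the lists used below. For these 3 genes the filter itself picks a difference from the other groups, so their levels are given with no test.

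The ligand genes wg and Wnt6 rose with Yki S168A, Trichoplax Yap S81A and Monosiga Yap-TBD, and neither was called with Monosiga Yap. Wnt10 was scarce in every group and highest with Trichoplax Yap S81A. The gene wg (2L 7307161 to 7316255, plus strand, build dm3) was listed at 4.63, 4.82 and 2.30 FPKM in control replicates 1 to 3 and at 4.11, 3.29 and 5.07 FPKM with Monosiga Yap. It was 11.2, 17.1 and 7.92 FPKM with Monosiga Yap-TBD, 67.5, 39.5 and 93.3 FPKM with Yki S168A, and 107, 79.3 and 176 FPKM with Trichoplax Yap S81A. All 9 libraries of the last 3 groups lay above all 6 of the other groups. Against a control mean of 3.92 ± 1.40 FPKM (SD, n = 3), wg rose 3.08-fold with Monosiga Yap-TBD (log2 fold change 1.40, SE 0.36, limma adjusted p = 0.0123). It rose 17-fold with Yki S168A (3.75 on the log2 scale, SE 0.36, limma adjusted p = 4.2e-05) and 30.8-fold with Trichoplax Yap S81A (4.60 on that scale, SE 0.36, adjusted p = 3.04e-06). The call with Monosiga Yap-TBD was lost when control replicate 3 or Monosiga Yap-TBD replicate 2 was dropped, and limma adjusted p ran from 0.00306 to 0.0637 over 25 alternative settings. With Monosiga Yap the mean was 4.16 ± 0.89 FPKM (limma adjusted p = 1), and the 95% interval of the log2 difference ran from -0.68 to 0.88.

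Wnt6, which codes for another Wnt and is known to share much of the wg pattern in discs, lies 24.2 kb downstream (2L 7340437 to 7352280, plus strand). Its control libraries were at 11.6, 13.7 and 5.99 FPKM and its Monosiga Yap libraries at 6.19, 8.83 and 9.22 FPKM. It reached 18.9, 24.3 and 14.4 FPKM with Monosiga Yap-TBD, 19.9, 17.5 and 32.2 FPKM with Yki S168A, and 57.1, 50.9 and 50.4 FPKM with Trichoplax Yap S81A. Monosiga Yap-TBD and Yki S168A overlapped, while the Trichoplax Yap S81A libraries lay above every other library. Compared with the control, Wnt6 rose 1.84-fold with Monosiga Yap-TBD (limma adjusted p = 0.0378), 2.23-fold with Yki S168A (adjusted p = 0.0194) and 5.07-fold with Trichoplax Yap S81A (adjusted p = 0.00011). The call with Monosiga Yap-TBD was lost in 7 alternatives, 4 of which drop a library (control 1, control 3, Monosiga Yap-TBD 1 or Monosiga Yap-TBD 2; limma adjusted p 0.00834 to 0.175). The call with Yki S168A was lost in a fit of these groups alone and on dropping control replicate 3 or Yki S168A replicate 3 (limma adjusted p 0.0104 to 0.0911).

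Wnt10, the last Wnt gene of the row (2L 7369540 to 7377530, plus strand, 17.3 kb beyond Wnt6), was near the limit of detection in the control. Its values were 0.14, 0.12 and 0 FPKM there, which correspond to an estimated 3, 3 and 0 fragments. With Monosiga Yap they were 0, 0.12 and 0 FPKM, and with Monosiga Yap-TBD 0.24, 0.22 and 0.19 FPKM, or 6, 4 and 4 fragments. With Yki S168A it was at 1.08, 1.86 and 0.92 FPKM (23, 43 and 29 fragments), and with Trichoplax Yap S81A at 1.99, 1.52 and 2.62 FPKM (42, 34 and 69 fragments). The last 2 groups lay above all other libraries. No fold or test is given for this gene, for the reason named above.

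The balance of wg to Wnt6 was read within each library. Their ratio was 0.399, 0.353 and 0.384 in the control, 0.665, 0.373 and 0.549 with Monosiga Yap, and 0.59, 0.706 and 0.551 with Monosiga Yap-TBD. It was 3.38, 2.25 and 2.9 with Yki S168A and 1.87, 1.56 and 3.5 with Trichoplax Yap S81A. In each library of the last 2 groups wg exceeded Wnt6, and in each library of the other groups it was the lower of the pair. These ratios are given without a test.

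**Figure D1:**
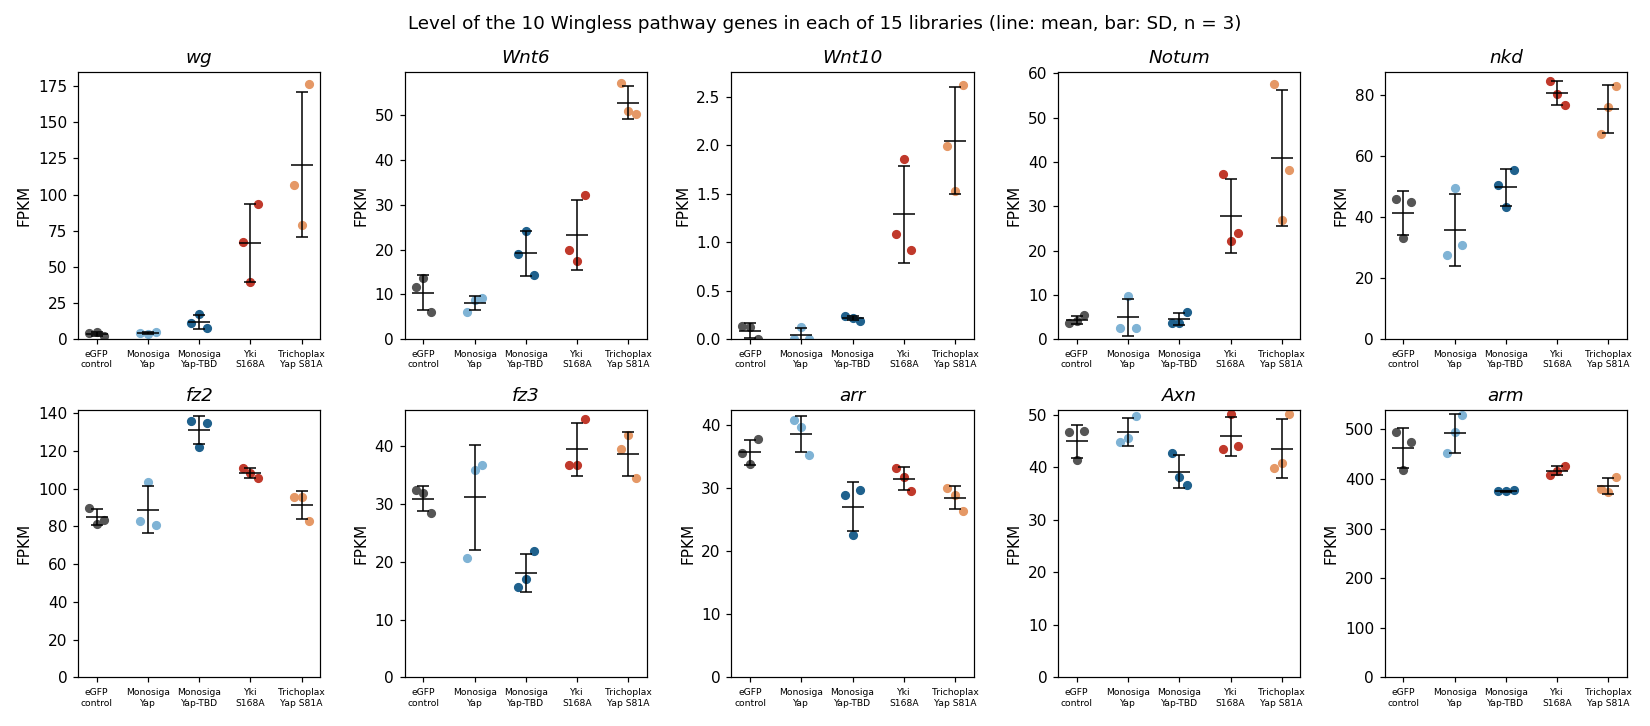
Level in FPKM (linear axes from 0, points are single libraries, lines are means and bars SDs of 3 libraries) of each of the 10 genes in the 5 groups. The panels of wg, Wnt10, Notum and nkd rise in the 2 groups on the right, fz2 is highest and fz3 lowest with Monosiga Yap-TBD, and the arm panel spans 373.6 to 529.3 FPKM.

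Markers of other territories moved in the same groups. Summed markers of eye neurons and photoreceptors lay at 332 to 422 FPKM in the control and 303 to 409 with Monosiga Yap, but at 73.1 to 80.5 with Monosiga Yap-TBD, 161 to 205 with Yki S168A and 148 to 200 with Trichoplax Yap S81A. Of 8 such markers 7 were tested, and 6 fell with Monosiga Yap-TBD, while 4 fell with each of the other pair. Of all genes 12.0% fell with Monosiga Yap-TBD, 6.52% with Yki S168A and 6.09% with Trichoplax Yap S81A. In the same order 12.6%, 5.42% and 6.09% of all genes rose, which also stand beside the calls in the marker lists below. The levels of ninaC and Dll, on these lists, are given further on. Of 5 retinal determination markers, all tested, eya and so fell with Monosiga Yap-TBD and eya with Trichoplax Yap S81A. Antenna and head capsule markers summed to 38.6 to 48.4 FPKM in the control, 35.3 to 51.3 with Monosiga Yap, 42.7 to 50.3 with Monosiga Yap-TBD, 56.8 to 83.2 with Yki S168A and 57.1 to 60 with Trichoplax Yap S81A. Of these 10 markers 8 were tested. B-H1 rose and ct fell with Yki S168A, B-H1 and Dr rose and ct and oc fell with Trichoplax Yap S81A, and ss, ct and oc fell with Monosiga Yap-TBD. Antp, also on this list, stayed below 0.5 FPKM in every library. Peripodial and margin markers summed to 210 to 231 FPKM in the control, at most 252 with Monosiga Yap, 455 to 523 with Monosiga Yap-TBD, 302 to 530 with Yki S168A and 331 to 350 with Trichoplax Yap S81A, with Ubx below 0.5 FPKM throughout. Of these 7 markers 5 were tested, and odd and drm rose with Monosiga Yap-TBD and hth with each of Yki S168A and Trichoplax Yap S81A. Hemocyte markers summed to 38.3 to 61.4 FPKM in the control, 13.9 to 44.2 with Monosiga Yap, 17.8 to 33.4 with Monosiga Yap-TBD, 13.6 to 24.1 with Yki S168A and 10.5 to 37 with Trichoplax Yap S81A. All 7 were tested, and Cg25C fell with Monosiga Yap-TBD and Cg25C and Pxn with Yki S168A. Of 6 glia markers, all tested, repo and loco fell with Monosiga Yap-TBD and Yki S168A and loco with Trichoplax Yap S81A, while nrv2 rose with Monosiga Yap-TBD and Trichoplax Yap S81A. Their sums were 285 to 303 FPKM in the control, 308 to 335 with Monosiga Yap, 349 to 394 with Monosiga Yap-TBD, 271 to 300 with Yki S168A and 317 to 341 with Trichoplax Yap S81A. The part of these cell types in the levels of wg, Wnt6 and Wnt10 was not tested.

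Of the feedback genes, Notum and nkd rose with Yki S168A and Trichoplax Yap S81A and were not called with Monosiga Yap-TBD. Notum (3L 16016580 to 16025861, plus strand) was at 3.56, 4.11 and 5.43 FPKM in the control libraries and at 2.49, 9.84 and 2.56 FPKM with Monosiga Yap. It was at 3.69, 3.77 and 6.14 FPKM with Monosiga Yap-TBD, 37.4, 22.1 and 23.9 FPKM with Yki S168A, and 57.5, 27.0 and 38.2 FPKM with Trichoplax Yap S81A. The last 2 groups lay above all other libraries, and Monosiga Yap-TBD overlapped the control. Notum rose 6.37-fold with Yki S168A (log2 fold change 2.40, SE 0.40, limma adjusted p = 0.00152) and 9.37-fold with Trichoplax Yap S81A (2.91, SE 0.40, adjusted p = 0.000267). With Monosiga Yap-TBD the log2 difference from the control was 0.03 (SE 0.40, 95% interval -0.83 to 0.89, limma adjusted p = 0.967), and with Monosiga Yap it was -0.05 (95% interval -0.91 to 0.81, adjusted p = 1).

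The level of nkd (3L 18996832 to 19038431, minus strand) was 46.1, 33.2 and 44.9 FPKM in the control and 27.5, 49.4 and 30.8 FPKM with Monosiga Yap. It was 50.4, 43.5 and 55.6 FPKM with Monosiga Yap-TBD, 84.6, 80.3 and 76.8 FPKM with Yki S168A and 67.1, 76.0 and 82.8 FPKM with Trichoplax Yap S81A. The control and both Monosiga groups overlapped, and the last 2 groups lay above them. The rise was 1.95-fold with Yki S168A (log2 fold change 0.96, SE 0.19, limma adjusted p = 0.00441) and 1.82-fold with Trichoplax Yap S81A (0.86, SE 0.19, adjusted p = 0.0084). With Monosiga Yap-TBD the log2 difference was 0.27 (95% interval -0.14 to 0.68, limma adjusted p = 0.345).

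The third gene of this kind, fz3 (X 664061 to 677344, plus strand), codes for a Frizzled family receptor that Wg induces in fly discs. It was at 32.4, 32.0 and 28.5 FPKM in the control, 20.7, 35.9 and 36.8 FPKM with Monosiga Yap, and 15.6, 17.0 and 21.9 FPKM with Monosiga Yap-TBD. With Yki S168A it was at 36.8, 36.8 and 44.7 FPKM, and with Trichoplax Yap S81A at 39.4, 41.9 and 34.5 FPKM. The last 2 groups lay above the control libraries, and Monosiga Yap-TBD lay below them. It fell to 0.586 of the control with Monosiga Yap-TBD (log2 fold change -0.75, SE 0.19, limma adjusted p = 0.0109), a call lost on dropping Monosiga Yap-TBD replicate 1 (adjusted p = 0.0527, the highest of 25 alternatives). The ratio of means was 1.27 with Yki S168A (limma adjusted p = 0.304), and for Trichoplax Yap S81A it was 1.25 (adjusted p = 0.348).

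**Figure D2:**
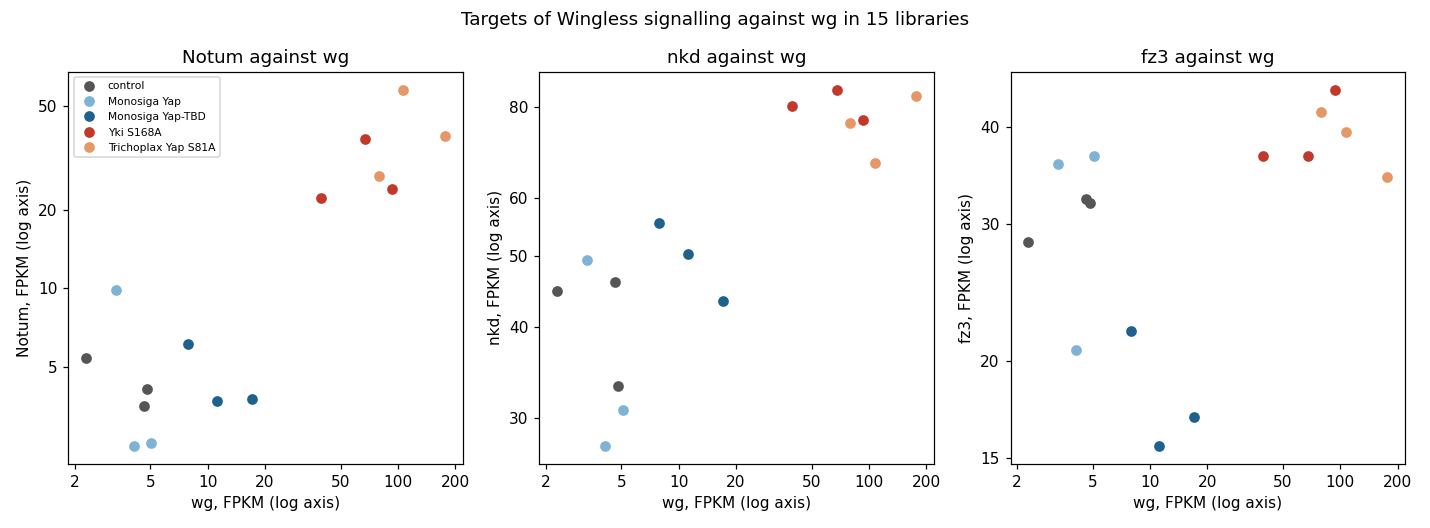
Levels of Notum, nkd and fz3 against the level of wg in the 15 libraries (FPKM on log axes, 1 point per library, colours are groups). Yki S168A and Trichoplax Yap S81A lie at the upper right in the Notum and nkd panels, while Monosiga Yap-TBD, with wg at 7.92 to 17.1 FPKM, overlaps the control for Notum and lies lowest or nearly so for fz3.

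Notum was also set beside wg within each library. The ratio of Notum to wg was 0.768, 0.852 and 2.36 in the control and 0.605, 2.99 and 0.504 with Monosiga Yap. It was 0.33, 0.22 and 0.776 with Monosiga Yap-TBD, 0.554, 0.56 and 0.256 with Yki S168A, and 0.538, 0.34 and 0.217 with Trichoplax Yap S81A. Over the 15 libraries the Pearson correlation of log2(FPKM + 1) with wg was 0.882 for Notum, 0.834 for nkd and 0.439 for fz3. These points share 5 groups, and the correlations are a description of these libraries. In order of mean level, wg ran from the control over Monosiga Yap, Monosiga Yap-TBD and Yki S168A to Trichoplax Yap S81A. The outer steps of that order were not called (limma adjusted p = 1 and 0.789), and the steps from Monosiga Yap to Monosiga Yap-TBD and on to Yki S168A were (adjusted p = 0.0174 and 0.00116).

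The receptor genes divided by construct. The gene fz2 (3L 19135998 to 19228191, minus strand) encodes a main Wg receptor, which Wg signalling represses in the wing disc. It was at 90.0, 81.4 and 83.6 FPKM in the control, 82.8, 103 and 80.7 FPKM with Monosiga Yap, and 136, 122 and 135 FPKM with Monosiga Yap-TBD. With Yki S168A it was at 111, 108 and 106 FPKM and with Trichoplax Yap S81A at 95.5, 95.8 and 82.7 FPKM. Monosiga Yap-TBD lay above every other library, and Yki S168A above the control. The rise with Monosiga Yap-TBD was 1.54-fold (log2 fold change 0.62, SE 0.11, limma adjusted p = 0.00072) and was called in all 25 alternatives. With Yki S168A the ratio of means was 1.27 (limma adjusted p = 0.0506), which fell below 0.05 in 5 alternatives. With Trichoplax Yap S81A it was 1.07 (limma adjusted p = 0.62).

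The receptor pair fz2 and fz3 changed in opposite directions with Monosiga Yap-TBD. The ratio of fz2 to fz3 was 8.72, 7.21 and 6.17 in those libraries, against 2.78, 2.55 and 2.94 in the control and 4, 2.88 and 2.2 with Monosiga Yap. It was 3.02, 2.94 and 2.36 with Yki S168A and 2.42, 2.29 and 2.4 with Trichoplax Yap S81A. The Monosiga Yap-TBD libraries lay above the other 12, a difference given here without a test.

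Lower down the pathway the differences were small. The co-receptor gene arr (2R 9341138 to 9370723, minus strand; an LRP5/6 family member) ranged from 33.8 to 37.8 FPKM in the control and from 22.7 to 29.7 FPKM with Monosiga Yap-TBD. It fell to 0.759 of the control there (log2 fold change -0.39, SE 0.12, limma adjusted p = 0.0237). That call was lost in 4 alternatives, 3 of which drop a library (control 1, control 3 or Monosiga Yap-TBD 2; highest limma adjusted p = 0.12). It was 29.6 to 33.2 FPKM with Yki S168A (limma adjusted p = 0.387) and 26.5 to 30.1 FPKM with Trichoplax Yap S81A (adjusted p = 0.1). Both ranges lay below that of the control without passing the test.

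Axn, which encodes the scaffold of the destruction complex (3R 25848566 to 25861033, plus strand), was at 41.4 to 46.9 FPKM in the control. Its ranges in the other groups, from 36.7 to 50.2 FPKM in all, gave limma adjusted p of 1, 0.244, 0.918 and 0.839 for Monosiga Yap, Monosiga Yap-TBD, Yki S168A and Trichoplax Yap S81A. It overlaps CG7928 on the other strand, and reads of the pair cannot be told apart where strand is not stated.

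The most abundant of the 10 was arm (X 1785434 to 1794673, minus strand), the beta-catenin gene, whose protein also sits in cell junctions. It stood at 418 to 496 FPKM in the control and at 375, 375 and 377 FPKM with Monosiga Yap-TBD, below all control libraries. The fall to 0.812 of the control (log2 fold change -0.30, SE 0.09, limma adjusted p = 0.0223) was lost in 6 alternatives, namely a fit of these groups alone and dropping control 1, control 3 or any single Monosiga Yap-TBD library (highest adjusted p = 0.0975). With Trichoplax Yap S81A arm was at 374 to 404 FPKM (limma adjusted p = 0.0718) and with Yki S168A at 408 to 426 FPKM (adjusted p = 0.319).

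**Figure D3:**
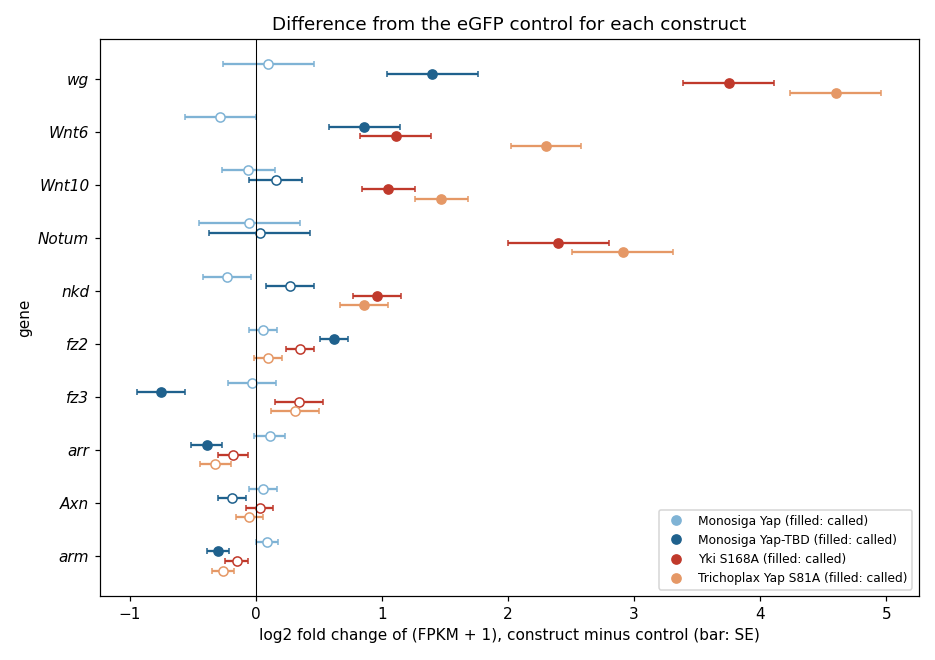
Log2 fold change of FPKM + 1 against the eGFP control for each gene and construct (points, with bars for SE). Filled points have limma adjusted p under 0.05: 0 for Monosiga Yap, 6 for Monosiga Yap-TBD, and 5 each for Yki S168A and Trichoplax Yap S81A, where Wnt10 is 1 of the 5 and entered only through those groups, with wg farthest to the right at 4.60.

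Counted over the 10 genes, 0 were called with Monosiga Yap against the control, where 0.326% of all tested genes were called, 0.228% higher and 0.0977% lower. The libraries overlapped in each of the 10, and 7.30% of all genes did not overlap. None had an unadjusted limma p under 0.05 in that comparison, and limma without trend and robust moderation also called 0. With Monosiga Yap-TBD, 3 rose and 3 fell, against 24.6% of all genes called, 12.6% higher and 12.0% lower. That count was 2 without control replicate 3 (19% of all genes called) and 2 without Monosiga Yap-TBD replicate 2 (17.7%), and 3 without control replicate 1 (19.5%) and 3 without Monosiga Yap-TBD replicate 1 (18.4%). Leaving Wnt10 out of the count, 4 of the other 9 genes rose with Yki S168A (wg, Wnt6, Notum and nkd) and 0 fell, against 11.9% of all genes called, 5.42% higher and 6.52% lower. With Trichoplax Yap S81A the same 4 rose and 0 fell, against 12.2% of all genes called, 6.09% in each direction. The groups did not overlap in 6, 7 and 7 of these 9 genes with Monosiga Yap-TBD, Yki S168A and Trichoplax Yap S81A, where 43.3%, 33.2% and 35.4% of all genes did not overlap. The median log2 fold change of the 9 was 0.03, 0.35 and 0.31 in these comparisons, beside 0.01, 0.00 and 0.04 over all genes. These comparisons share the control libraries.

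Without Trichoplax Yap S81A replicate 1, the library rich in fat body markers, the same 4 genes were called with that construct. The log2 fold changes were then 4.65 for wg, 2.25 for Wnt6, 2.64 for Notum and 0.94 for nkd (limma adjusted p = 3.12e-05, 0.000713, 0.00161 and 0.0145). Among the comparisons between constructs described next, 2 calls were lost without it, that of nkd between Monosiga Yap-TBD and Yki S168A (limma adjusted p = 0.0512) and that of arm between Trichoplax Yap S81A and Monosiga Yap (adjusted p = 0.053).

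Monosiga Yap-TBD against Monosiga Yap compares constructs whose names differ by HumanTBD, which the sample description refers to as human TEAD. The groups also differ in ectopic proliferation and in the marker levels above, which cannot be told apart from the construct here. With Monosiga Yap-TBD wg rose 2.9-fold (limma adjusted p = 0.0174), Wnt6 2.37-fold (adjusted p = 0.00797) and fz2 1.47-fold (adjusted p = 0.00144). In the other direction fz3 fell to 0.583 (limma adjusted p = 0.0132), arr to 0.702 (adjusted p = 0.00565) and arm to 0.764 (adjusted p = 0.00462). These 6 calls stand beside 26.5% of all genes called, 14.3% higher and 12.2% lower. Dropping Monosiga Yap replicate 2 or Monosiga Yap-TBD replicate 2, or a pseudocount of 5, took away the call of wg (highest limma adjusted p = 0.0867). Dropping Monosiga Yap replicate 2 or Monosiga Yap-TBD replicate 1, or a fit of these groups alone, took away that of fz3 (highest adjusted p = 0.0937). The call of fz2 was lost with quantile normalization (limma adjusted p = 0.05) and that of arr in a fit of these groups alone (adjusted p = 0.0644), while those of Wnt6 and arm held in all 25. The libraries did not overlap in 6 of the 9 genes other than Wnt10, where 35.7% of all genes did not. Notum, at 4.53 ± 1.40 against 4.96 ± 4.23 FPKM, gave limma adjusted p = 0.915, and nkd, at 49.8 ± 6.06 against 35.9 ± 11.8 FPKM, adjusted p = 0.0676. For nkd the result hung on Monosiga Yap replicate 2. Without that library nkd was called higher (limma adjusted p = 0.00343), as it was with array weights (adjusted p = 0.00133).

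Monosiga Yap-TBD against Yki S168A compares 2 constructs that both gave ectopic proliferation. Of the 9 genes other than Wnt10, 0 were higher and 4 were lower with Monosiga Yap-TBD, where 7.13% of all genes were called, 3.39% higher and 3.74% lower. The libraries did not overlap in 7 of the 9 genes and in 25.5% of all genes. The gene wg was at 0.181 of its Yki S168A level (log2 fold change -2.35, SE 0.36, limma adjusted p = 0.00116) and Notum at 0.163 (-2.37, SE 0.40, adjusted p = 0.00211). The level of fz3 was 0.46 of that with Yki S168A (limma adjusted p = 0.00286). For nkd, at 0.619 of the Yki S168A level (limma adjusted p = 0.0431), the call ended in 15 of 25 alternatives, among them dropping control 1 or 3 or any single library of the Monosiga Yap-TBD, Yki S168A or Trichoplax Yap S81A groups, with a highest adjusted p of 0.184. Wnt6, at 19.2 ± 4.95 against 23.2 ± 7.87 FPKM, differed by -0.25 on the log2 scale (95% interval -0.85 to 0.36, limma adjusted p = 0.698).

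Against Trichoplax Yap S81A, Monosiga Yap-TBD was lower in wg (0.0999 of its level, limma adjusted p = 9.87e-05), Notum (0.111, adjusted p = 0.000486), Wnt6 (0.363, adjusted p = 0.00631) and fz3 (0.47, adjusted p = 0.00394). It was higher in fz2 (1.43-fold, limma adjusted p = 0.00928), which quantile normalization or dropping Monosiga Yap-TBD replicate 1 took away. These are 4 lower and 1 higher of the 9 genes other than Wnt10, where 6.32% of all genes were called, 2.98% higher and 3.33% lower. The libraries did not overlap in 6 of the 9 genes and in 24.2% of all genes. The level of nkd was 0.661 of that with Trichoplax Yap S81A (limma adjusted p = 0.0956). It was called lower in a fit of these groups alone, with array weights and without Monosiga Yap replicate 2 (lowest limma adjusted p = 0.00408).

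Between Trichoplax Yap S81A and Yki S168A, 0 of the 10 genes were called, and 0.510% of all genes, 0.347% higher and 0.163% lower. The libraries did not overlap in 3 of the 10 and in 11.2% of all genes. An unadjusted limma p under 0.05 was found for 3 of them, namely wg (log2 fold change 0.85, 95% interval 0.07 to 1.63, adjusted p = 0.789), Wnt6 (1.20, 95% interval 0.59 to 1.80, adjusted p = 0.106) and fz2 (adjusted p = 0.804). Wnt6, at 52.8 ± 3.75 against 23.2 ± 7.87 FPKM with no overlap between the libraries, was called with a pseudocount of 5, with array weights and without control replicate 3. For Notum the 95% interval of the log2 difference was -0.34 to 1.37, and for nkd -0.51 to 0.31. Set against Monosiga Yap in place of the control, Yki S168A was higher in wg, Wnt6, Notum and nkd and lower in 0 of the 9 genes other than Wnt10, where 11.7% of all genes were called, 5.17% higher and 6.50% lower. Trichoplax Yap S81A was higher in these 4 and lower in arr (limma adjusted p = 0.0286) and arm (adjusted p = 0.0173), where 12.7% of all 9213 genes were called, 553 genes higher and 619 genes (6.72%) lower. The call of arr was lost in 5 of 25 alternatives (up to 0.151), 4 of which drop Monosiga Yap 1 or 2 or Trichoplax Yap S81A 2 or 3. That of arm was lost in 4 (up to 0.161), 3 of which drop Monosiga Yap 2 or Trichoplax Yap S81A 1 or 2. The libraries did not overlap in 8 and 6 of the 9 genes, and in 25.2% and 25.9% of all genes.

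The 3 ligand genes sit in a row on 2L with Wnt4 on the other side of wg, 30.0 kb away on the minus strand. Within 50 kb of the row lie 15 genes, the ligand genes included, of which 11 were tested. Just 187 bases beyond Wnt10, on the same strand, begins ninaC, which encodes a myosin with a kinase domain made in photoreceptors. It was at 0.19, 0.29 and 0.15 FPKM in the control, 2.31, 1.58 and 1.25 FPKM with Yki S168A and 3.96, 2.73 and 4.995 FPKM with Trichoplax Yap S81A. With Monosiga Yap-TBD ninaC was at 0.22, 0.21 and 0.42 FPKM. Like Wnt10, it passed the filter only through the groups where it is high, so no test is given. Of the other eye neuron markers, elav, sev and ro were called lower with Yki S168A and with Trichoplax Yap S81A. The gene gl was called lower only with the former of these, and chp only with the latter. Wnt10 and ninaC share their high and low groups, but the filter picks both genes for that, and nothing is drawn from it. How far the values of this close pair are independent was not tested.

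Wnt4 itself, also a Wnt ligand gene, was not called against the control with any construct. Its mean was 3.36 ± 0.36 FPKM there and 6.96, 1.65, 5.52 and 4.69 FPKM with Monosiga Yap, Monosiga Yap-TBD, Yki S168A and Trichoplax Yap S81A (limma adjusted p = 0.497, 0.0568, 0.206 and 0.45). With Monosiga Yap-TBD it was called in 7 of 25 alternatives (limma adjusted p 0.00829 to 0.244), and with Yki S168A in 1, array weights (0.0106). Directly between constructs, Wnt4 was lower with Monosiga Yap-TBD than with Monosiga Yap (0.237 of its level, limma adjusted p = 0.000549) or Yki S168A (0.299, adjusted p = 0.00735). It was also lower than with Trichoplax Yap S81A (limma adjusted p = 0.0233), a call lost in 6 of 25 alternatives, among them dropping Monosiga Yap-TBD 1 or 2 or Trichoplax Yap S81A 1 or 3 (up to 0.114). Of the other tested neighbours, only chm was called against the control, at 21.4 against 15.4 FPKM with Yki S168A (limma adjusted p = 0.0479). That call ended in 15 of 25 alternatives (0.0107 to 0.187).

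**Figure D4:**
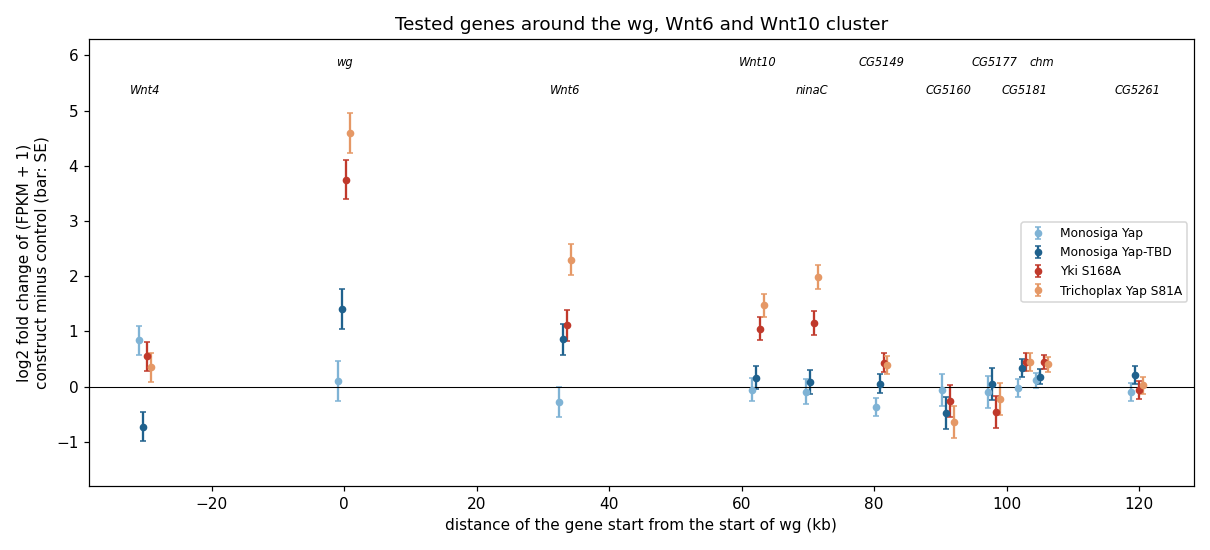
Log2 fold change of FPKM + 1 against the control (points, bars for SE) for the 11 tested genes around the ligand cluster, by distance of the gene start from the start of wg in kb. With Yki S168A and Trichoplax Yap S81A, wg and Wnt6 were called higher. Wnt10 and ninaC also lie above 0 there, but entered only through those groups. Wnt4, 30.0 kb on the other side, was not called against the control and has its own order of constructs.

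Of 75 other genes of the pathway, in 6 lists of ligands, secretion and spread, receptors, cytoplasmic transducers, nuclear factors and known disc targets, 69 were tested. With Monosiga Yap, limma called 0. Leaving out Dll, 68 are counted. With Monosiga Yap-TBD 7 rose and 11 fell (26.5% of them, 24.6% of all genes), with Yki S168A 5 rose and 6 fell (16.2%, 11.9% of all genes), and with Trichoplax Yap S81A 6 rose and 7 fell (19.1%, 12.2% of all genes). Their median log2 fold change was -0.00, 0.10 and 0.08 in these comparisons, beside 0.01, 0.00 and 0.04 over all genes. With Dll, 14 were called with Trichoplax Yap S81A, and 10 without replicate 1 of that group (9.61% of all genes). The calls of hth, dnt, CtBP and otk were among those lost.

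Among the other ligand genes, Wnt2 fell from 9.25 FPKM to 2.43 with Monosiga Yap-TBD, 3.60 with Yki S168A and 3.62 with Trichoplax Yap S81A (limma adjusted p = 0.000351, 0.01 and 0.0101). It thus moved in the opposite direction to wg with all 3 constructs. Of 14 genes of Wnt secretion and spread, the glypican gene dally, whose protein binds Wg at the cell surface, rose from 61.9 to 171, 158 and 147 FPKM (limma adjusted p = 8.54e-06, 9.13e-05 and 0.000123). Its relative dlp rose from 38.2 to 82.9 FPKM with Monosiga Yap-TBD (limma adjusted p = 0.000161). Also on this list, shf, which encodes a secreted Wnt inhibitory factor relative, fell with Monosiga Yap-TBD and Trichoplax Yap S81A to 40.6 and 39.1 from 60.5 FPKM (limma adjusted p = 0.00252 and 0.00274). Whether shf has any part in the spread of Wg was not tested, and its fall is not read as a change in that spread. Swim, listed as CG3074 and known to keep Wg soluble, fell from 27.3 to 12.2 FPKM with Yki S168A and 12.5 FPKM with Trichoplax Yap S81A (limma adjusted p = 0.00711 and 0.0084), and stood at 36.9 FPKM with Monosiga Yap-TBD, uncalled.

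In the list of 12 receptors, all tested, 2 rose and 7 fell with Monosiga Yap-TBD, 0 rose and 2 fell with Yki S168A, and 1 rose and 3 fell with Trichoplax Yap S81A. Of all genes 12.6% rose and 12.0% fell with Monosiga Yap-TBD, 5.42% and 6.52% with Yki S168A, and 6.09% each with Trichoplax Yap S81A. Members fz2, fz3 and arr are part of these counts, and no list was tested as a whole. The receptor tyrosine kinase genes Ror and Nrk fell with all 3 constructs. For Ror the levels were 34.3 FPKM in the control and 11.2, 16.1 and 17.1 FPKM (limma adjusted p = 1.23e-06, 0.000166 and 0.00021), and for Nrk 16.7 FPKM and 4.42, 8.85 and 7.80 FPKM (adjusted p = 1.66e-05, 0.00873 and 0.003). The Ryk-type receptors did not move together. Of these, dnt rose from 21.5 to 37.4 FPKM with Monosiga Yap-TBD (limma adjusted p = 0.00621) and to 32.9 FPKM in the Trichoplax Yap S81A group (adjusted p = 0.0475, lost in 13 of 25 alternatives, up to 0.183). Drl-2 was called lower with Monosiga Yap-TBD (limma adjusted p = 0.0288, up to 0.296 over the alternatives), and drl was not called against the control. The founding Frizzled gene, fz, fell from 43.0 to 25.3 FPKM with Monosiga Yap-TBD (limma adjusted p = 0.0294), which dropping any of control 1, control 3, Monosiga Yap-TBD 1 and Monosiga Yap-TBD 2 took away (up to 0.109). The gene otk, which encodes a Wnt-binding co-receptor, fell from 47.6 to 30.2 FPKM with Monosiga Yap-TBD and 30.1 FPKM with Trichoplax Yap S81A (limma adjusted p = 0.0152 and 0.0268). Dropping control 3 or Monosiga Yap-TBD 2 took away the former call, and dropping control 3, Trichoplax Yap S81A 1 or Trichoplax Yap S81A 2 the latter.

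Of 15 cytoplasmic transducers, Axn included, 1 rose and 1 fell with Monosiga Yap-TBD and 0 were called with Yki S168A or Trichoplax Yap S81A. Of all genes 24.6%, 11.9% and 12.2% were called in these comparisons. The one that fell was Tnks, listed as tankyrase, whose enzyme marks Axin for destruction, from 31.9 to 22.4 FPKM (limma adjusted p = 0.00216). The one that rose, mts, encodes a phosphatase catalytic subunit. The control mean of 346 FPKM and the Monosiga Yap-TBD mean of 411 FPKM gave limma adjusted p = 0.0432, and mts lost its call in 15 of 25 alternatives. Of 17 nuclear factors, CtBP and Bap55, genes of a corepressor and of a chromatin remodelling subunit, rose with all 3 constructs by 1.21-fold to 1.5-fold. The call of CtBP with Trichoplax Yap S81A (limma adjusted p = 0.0353) ended in 12 of 25 alternatives.

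Of 22 genes known as Wg targets in fly discs, a list that holds nkd, Notum, fz3 and Axn, 17 were tested. With Yki S168A 5 rose and 2 fell, with Trichoplax Yap S81A 5 rose and 1 fell, and with Monosiga Yap-TBD 1 rose and 4 fell. Dll is 1 of the 5 with Yki S168A and with Trichoplax Yap S81A, but it passed the filter only through these groups. Its call is picked by the filter and is not evidence of a difference. The others that rose with each of these constructs were nkd, Notum, hth and vn. Of all genes 5.42% rose and 6.52% fell with Yki S168A, and 6.09% each with Trichoplax Yap S81A. With Monosiga Yap-TBD 12.6% of all genes rose and 12.0% fell. Without Trichoplax Yap S81A replicate 1 the call of hth with that construct was lost, and those of nkd, Notum, vn and ct stood. Dll, ct and hth of this list are also on the marker lists above. The homeobox gene Dll, of ventral appendages, had a mean of 0.40 FPKM in the control, 0.50 with Monosiga Yap-TBD, 7.70 with Yki S168A and 4.37 with Trichoplax Yap S81A, and was at most 0.61 FPKM in the 9 libraries of the control and the Monosiga groups. Also, hth, a homeobox gene of head and undifferentiated eye cells, rose from 106 to 243 FPKM with Yki S168A (limma adjusted p = 0.00161) and to 174 FPKM with Trichoplax Yap S81A (adjusted p = 0.0326, lost in 9 of 25 alternatives, up to 0.11). The EGF receptor ligand gene vn rose from 1.27 to 18.5 FPKM with Monosiga Yap-TBD, 4.62 with Yki S168A and 6.89 with Trichoplax Yap S81A (limma adjusted p = 2.51e-07, 0.00147 and 0.000136). The homeobox gene ct fell with all 3 constructs, from 4.54 to 1.69, 1.63 and 1.46 FPKM (limma adjusted p = 0.00556, 0.00847 and 0.00472). The proneural gene sens fell from 7.67 to 4.50 FPKM with Monosiga Yap-TBD and 4.52 FPKM with Yki S168A (limma adjusted p = 0.0195 and 0.0326), with highest adjusted p of 0.0814 and 0.133 over the alternatives. The T-box gene bi fell with Monosiga Yap-TBD from 24.6 to 15.5 FPKM (limma adjusted p = 0.0105; 0.0556 at the highest). The level of hth was lower with Monosiga Yap-TBD than with Yki S168A (limma adjusted p = 0.0211), a call lost on dropping Monosiga Yap-TBD 1 or 2 or Yki S168A 1 or 3 (up to 0.111), while vn was 4-fold higher (adjusted p = 0.000146).

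The genes whose pattern over the 15 libraries was most like that of wg, by Pearson correlation of log2(FPKM + 1), were mnd (0.968), th (0.948), lbl (0.944), Wnt10 (0.935) and ninaC (0.927). Of these mnd, an amino acid transporter gene, stood at 24.3 FPKM in the control, 72.7 with Yki S168A and 82.8 with Trichoplax Yap S81A, and the homeobox gene lbl at 0.13, 6.11 and 29.0 FPKM. The caspase inhibitor gene th, also called Diap1, stood at 302 FPKM in the control, 444 with Yki S168A and 431 with Trichoplax Yap S81A. For Wnt6 the nearest were wg (0.915), Orc5 (0.912), out (0.911), TwdlE (0.898) and mnd (0.885), and for Notum ninaC (0.942), sqz (0.929), Wnt10 (0.919), d (0.918) and lbl (0.915). For nkd they were InR (0.965), hth (0.939), kst (0.92), cdc14 (0.908) and row (0.906). Wnt10, ninaC and lbl are listed for both wg and Notum, and none of the 5 listed for nkd is listed for the others. Like Wnt10 and ninaC, lbl passed the filter only through Yki S168A and Trichoplax Yap S81A, with at most 0.66 FPKM in any other library. The filter thus favours a place for Wnt10, ninaC and lbl beside genes high in those groups, and nothing is drawn from it. The libraries behind these values share 5 groups and cover 1 experiment, and no p is given.

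The authors' deposited table gave ratios for the same comparisons, on a natural log scale. For wg the authors' deposited table has 0.0481 with Monosiga Yap, 1.11 with Monosiga Yap-TBD, 2.98 with Yki S168A and 3.51 with Trichoplax Yap S81A. For Notum the authors' deposited table has 0.116, 0.0512, 1.86 and 2.22 in the same order, and for nkd -0.141, 0.24, 0.731 and 0.647. For fz3 the authors' deposited table has -0.00435, -0.517, 0.338 and 0.223, and for fz2 0.0394, 0.476, 0.298 and 0.0763. The low value of fz3 and the high value of fz2 with Monosiga Yap-TBD thus stand in both sources, which rest on the same libraries. Other genes were less alike. With Monosiga Yap-TBD the authors' deposited table has -0.224 for arr and -0.178 for arm (authors' deposited p = 0.109 and 0.0421), which limma called lower. With Yki S168A the authors' deposited p was 0.0187 for fz2 and 0.0336 for fz3, which limma left uncalled after adjustment.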

How the data were processed

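RNA sequencing values of 15 libraries in 5 groups of 3 were used. The tools named, per the submitters' processing notes and without role or order, are Cufflinks, Cuffdiff 1.0.2, TopHat 1.0.14 and CASAVA 1.7.0, with build dm3, and coordinates are given as deposited in that build. The deposited FPKM values were made by the authors per library, and further scaling is not stated. The deposited natural log ratios of construct over control were computed by the authors, as was the deposited p-value of each gene. Their adjusted values exceed 1 in places, so this deposited column was treated as a score and not used. A deposited mean level per gene, an other measure of the authors, was not used.

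The main test was limma 3.58.1 (R 4.3.3) on log2(FPKM + 1), with trend and robust moderation. It kept the 9213 genes that reached 1 FPKM in 3 or more libraries. A single fit over all 15 libraries left 10 residual degrees of freedom, to which moderation added a median of 3.7, and the median SE of a log2 fold change was 0.193. Each of 10 contrasts was two-sided, with Benjamini-Hochberg adjustment across the genes, and called means under 0.05. Folds are ratios of mean FPKM. The script was tested on simulated data. Python 3.11.15, scipy 1.17.1, pandas 2.3.3, matplotlib 3.10.9 and numpy 2.4.6 served the other steps.

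Depth was estimated from the steps of low values in 873 genes with 1 annotated transcript (length correction 229 bases). Within-group correlations were 0.931 to 0.965, and 0 pairs of libraries were identical. The member genes and the lists were chosen with earlier results of these data known. All 10 members are named, with up to 4 called genes of each list and comparison, by size of change, and 5 genes of like pattern for each of wg, Wnt6, Notum and nkd. Drl-2 was named in addition. Of 154 list entries 154 matched a gene, with Notum entered under 2 names and counted once. Neighbours lie within 50 kb. The 25 alternatives changed the pseudocount (0.1 or 5), filter (none or FPKM 5), scaling, samples in the fit, weights, block or moderation, or left out 1 library. Protein and DNA sequences were not used here.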

Additional observations from a re-analysis of the deposited data

How the results depend on the processing

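Of 100 results for the 10 genes in 10 comparisons, Wnt10 included, 45 were called, and 29 of these kept their call in every alternative, among them wg, Notum and nkd with Yki S168A and Trichoplax Yap S81A against the control, Wnt6 with Trichoplax Yap S81A and fz2 with Monosiga Yap-TBD. Of the 55 uncalled results, 17 gained a call in some alternative. Wnt10 was not tested with the filter at FPKM 5. The counts here are over all 10 genes, with the share of all genes called beside them. Calls of Wnt10 within them, and within the 45 and 29 above, are picked by the filter and are not evidence of a difference. Leaving Wnt10 out, the main fit called 4 genes each with Yki S168A and Trichoplax Yap S81A against the control. Monosiga Yap-TBD then gave 4 against Yki S168A and 5 against Trichoplax Yap S81A. For Monosiga Yap-TBD against the control the count was 6 (24.6%), and 3 with only the groups compared (26.5%). For Monosiga Yap-TBD against Yki S168A it was 5 (7.13%), 3 with quantile normalization (7.07%) and 8 with array weights (37.6%). For Trichoplax Yap S81A against Yki S168A it was 0 (0.510%), 1 with a pseudocount of 5 (0.543%) and 2 with array weights (7.59%). Leaving out single libraries gave 2 to 6, 3 to 5 and 0 to 1 in these comparisons. It gave 0 throughout for Monosiga Yap, 4 to 6 for Yki S168A and 5 to 6 for Trichoplax Yap S81A against the control. For Monosiga Yap-TBD it gave 5 to 6 against Monosiga Yap and 5 to 7 against Trichoplax Yap S81A. In the order of these ranges, the main fit called 0.326%, 11.9%, 12.2%, 26.5% and 6.32% of all genes. In the 5-gene count of Monosiga Yap-TBD against Yki S168A, the number was 3 without any single Monosiga Yap-TBD library or Yki S168A replicate 2 (3.95% to 5.73% of all genes). The cause of these shifts was not tested.

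With the replicate number as a block, the counts against the control were 0, 5, 5 and 5 for Monosiga Yap, Monosiga Yap-TBD, Yki S168A and Trichoplax Yap S81A. The shares of all genes called were 0.271%, 23.3%, 10.9% and 11.3% in the same order. In the replicate block fit the counts were 6 for Monosiga Yap-TBD against Monosiga Yap (25% of all genes), 4 against Yki S168A (5.87%) and 6 against Trichoplax Yap S81A (5.86%). For Trichoplax Yap S81A against Yki S168A the count was 0 (0.423%). The numbers were not taken as pairing the libraries, since the deviations of same-numbered libraries correlated at -0.401 to 0.321, over 0.1 in 6 of 30 pairs, and a library correlated best with its own number in 12 of 60 checks.

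In 13 uncalled results the sign changed under some alternative (lowest limma adjusted p = 0.441). With array weights these log2 fold changes were -0.02 for wg and -0.03 for fz2 (Monosiga Yap against control), -0.01 for Notum (Monosiga Yap-TBD against control), 0.02 for Wnt6 (Monosiga Yap-TBD against Yki S168A), 0.12 for fz3 (Trichoplax Yap S81A against Yki S168A) and 0.10 for Axn (Yki S168A against Monosiga Yap). For Notum with Monosiga Yap against control the value was 0.02 with a pseudocount of 5 and 0.10 with quantile normalization. Quantile normalization gave -0.03 for Axn (Yki S168A against control) and -0.08 for fz2 (Trichoplax Yap S81A against Monosiga Yap), and upper quartile scaling -0.02 and -0.03 for these, and -0.04 for Notum (Monosiga Yap-TBD against control). Leaving out single libraries, with Monosiga Yap against control wg ranged from -0.16 to 0.24, Notum from -0.59 to 0.23, fz2 from -0.05 to 0.12 and fz3 from -0.17 to 0.23. Against the control, Notum ranged from -0.17 to 0.17 with Monosiga Yap-TBD, and Axn from -0.03 to 0.07 with Yki S168A and from -0.15 to 0.01 with Trichoplax Yap S81A. For Monosiga Yap-TBD, Notum ranged from -0.19 to 0.62 against Monosiga Yap, Wnt6 from -0.42 to 0.01 against Yki S168A and arr from -0.15 to 0.04 against Trichoplax Yap S81A. For Trichoplax Yap S81A, fz3 ranged from -0.09 to 0.06 against Yki S168A and fz2 from -0.02 to 0.16 against Monosiga Yap. Axn ranged from -0.09 to 0.02 for Yki S168A against Monosiga Yap. The other 75 pathway genes were put through the same alternatives after their values were seen. The called count rose from 18 to 31 with Monosiga Yap-TBD and from 12 to 32 with Yki S168A against the control when array weights were used, which raised the share of all genes called to 43.6% and 32.9%. With Yki S168A both counts include Dll, which was picked by the filter. With 3 libraries per group, Wnt10 and ninaC rest on few fragments in the control.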
